A study of Mus musculus with 10 samples.

Results

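A set of genes that mark the lineage and subsets of dendritic cells were followed in F4/80+ cells sorted from mouse melanomas. They were chosen by symbol and are Flt3, Zbtb46, Dpp4, Xcr1, Clec9a, Wdfy4, Batf3, Itgae, Cd209a and Ccr7, which is 10 of the 55359 gene identifiers counted in each library. All 10 were found, and all 10 were among the 14374 genes that passed the filter on low counts. RNA was sequenced from 10 libraries, 5 labelled control with genotype Ccr2RFP/+ and 5 labelled Ccr2 KO with genotype Ccr2RFP/RFP, so both groups carried an RFP allele of Ccr2, 1 copy in controls and both copies in knockouts. The titles call the controls WT, while the genotype label names them heterozygous, and the genotype label was followed. All mice were male, received Braf/Mek inhibitors every day until collection, and bore tumours labelled resistant/rebound. Whether each library is its own animal is not stated, so the spread behind every p-value is that between libraries and may be technical.

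Dendritic cells take up antigen, carry it to lymph nodes and present it to T cells. Conventional dendritic cells arise from bone marrow precursors that need the cytokine receptor Flt3, and they express the transcription factor Zbtb46. Type 1 cells depend on Batf3 and Irf8 and cross-present antigen to CD8+ T cells, while type 2 cells chiefly serve CD4+ T cells. A dendritic cell of either type that matures induces Ccr7 and migrates along lymphatic vessels. Ccr2, the receptor knocked out here, is the chemokine receptor by which inflammatory monocytes leave the marrow, and monocytes in tumours can themselves take on dendritic cell features.

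The libraries held between 34639808 and 43360206 counts in genes. Ccr2 stood between 59.1 and 177 CPM (counts relative to the library's total, scaled by TMM) in control libraries and between 3.23 and 6.28 CPM in knockout libraries, which matches the labels in all 10. Adgre1, the gene of the sorted antigen F4/80, ranged from 1562 to 2020 CPM with no gap between genotypes. Some libraries resembled each other more than the rest of their group. Controls 3 and 4 differed by a median chi-square of 2.66 per gene and controls 1 and 2 by 2.75, against 8.14 to 13.2 for the other control pairs and 6.54 to 23.3 for knockout pairs. Sampling noise alone would give 0.455, and even the closest pairs differed by more than that. Repeat preparations of the same animal could also exceed it, so this value cannot show that the libraries are independent. Each library was counted as a sample. The fits with these control pairs summed, and without knockout libraries 4 and 5, are given beside the results they change.

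Of the 10 members, 1 passed the test. Dpp4 fell to 20.2% of its control level in Ccr2 knockout cells, and its groups did not overlap. Of the other 9 members, 7 had a negative and 2 a positive log2 fold change, and none passed at an edgeR adjusted p under 0.05. The lower call for 1 of 10 members stands beside 0.543% of all tested genes called lower, and the 0 of 10 called higher stands beside 0.87% called higher. At an unadjusted edgeR p under 0.05 there were 4 members (Dpp4, Flt3, Ccr7 and Cd209a), all lower, beside 7.28% of all tested genes. DESeq2 called 2 lower, Dpp4 and Flt3, and 0 higher, beside 2.51% and 3.21% of the genes it tested. The median log2 fold change over the 10 members was -0.96, against -0.00335 over all tested genes, and 8 of 10 were negative where 50.5% of all tested genes were. In bulk RNA, fewer cells of a type and less RNA per cell cannot be told apart. The members were named with earlier results of these data known, so the counts describe the list.

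**Figure D1:**
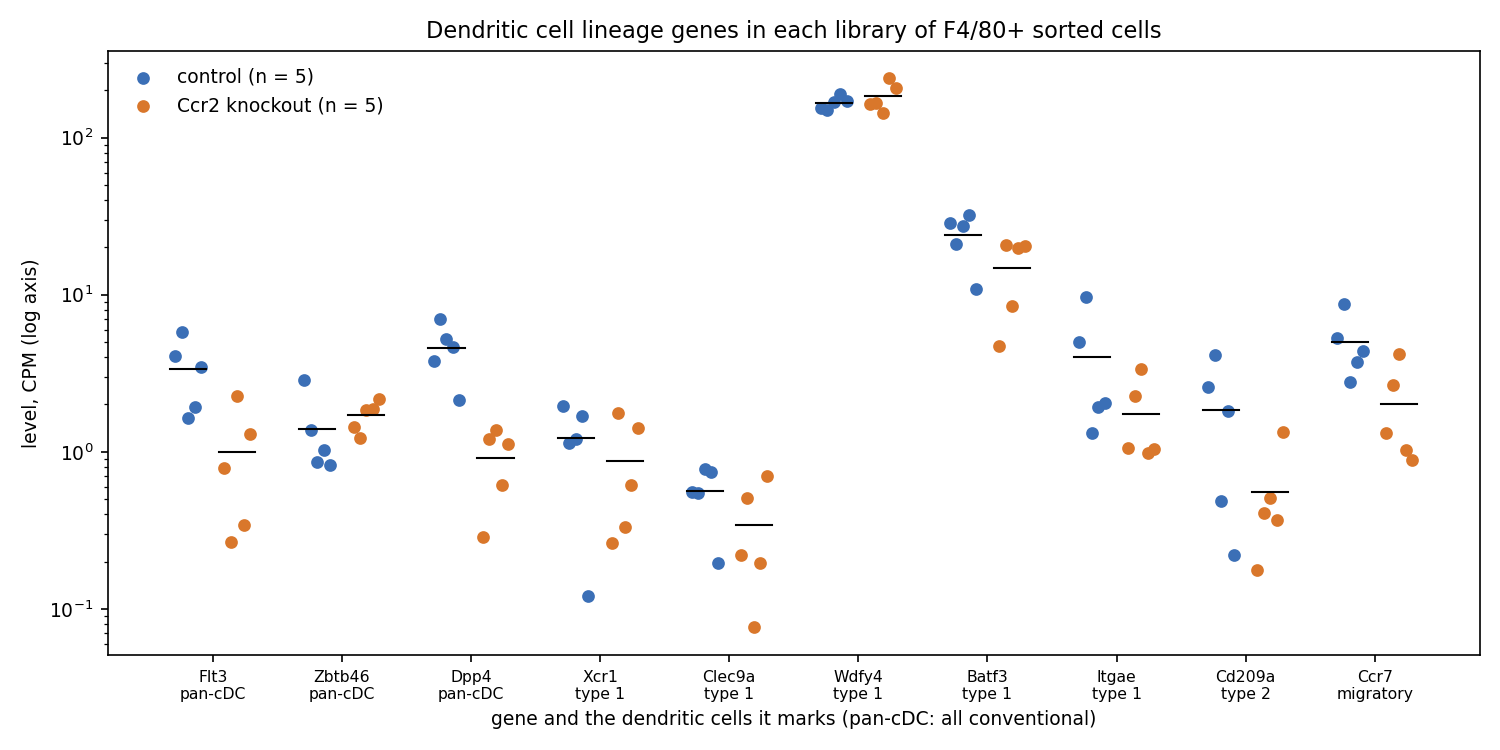
Level of each dendritic cell lineage gene (CPM, log axis) in each of the 10 libraries, control in blue and Ccr2 knockout in orange, with a line at each group's mean. Dpp4 lies at 2.14 CPM or above in every control and at 1.37 CPM or below in every knockout, whereas the groups of the other 9 genes overlap.

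The promoter letters of 8 members were found in RefSeq's table for GRCm38.p6, and Ccr7 and Itgae were not among them. Shown are the 250 bases before the start of Dpp4, the member that fell, and of Zbtb46 and Cd209a, the pan-conventional and type 2 genes whose ratio is tested here and whose windows held the motif matches. They read 5′ to 3′ on the gene's strand, and capitals mark a match. The starts are those RefSeq's table lists, and they were not checked against data on where transcription begins.
Dpp4, chr2:62412232-62412481, minus strand: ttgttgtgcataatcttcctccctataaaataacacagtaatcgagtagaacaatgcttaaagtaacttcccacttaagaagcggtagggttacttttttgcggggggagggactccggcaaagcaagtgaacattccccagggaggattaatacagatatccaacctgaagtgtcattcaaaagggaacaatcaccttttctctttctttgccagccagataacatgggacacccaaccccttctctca
Zbtb46, chr2:181424389-181424638, minus strand: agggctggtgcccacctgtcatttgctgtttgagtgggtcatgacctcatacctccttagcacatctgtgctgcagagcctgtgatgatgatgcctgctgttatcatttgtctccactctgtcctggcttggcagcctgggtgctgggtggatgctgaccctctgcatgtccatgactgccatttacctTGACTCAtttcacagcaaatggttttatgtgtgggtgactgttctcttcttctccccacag
Cd209a, chr8:3748985-3749234, minus strand: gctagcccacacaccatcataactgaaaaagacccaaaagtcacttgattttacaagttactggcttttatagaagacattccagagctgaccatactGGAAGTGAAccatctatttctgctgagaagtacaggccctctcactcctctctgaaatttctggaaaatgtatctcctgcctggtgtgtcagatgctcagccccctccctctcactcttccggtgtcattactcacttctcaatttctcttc

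A search for 4 motifs was made on both strands from 250 bases before to 50 bases after the start. They were TGANTCA (AP-1, the family of Batf3), GAGGAAGT (PU.1), GGAANTGAA (an ETS site beside an IRF site) and GGGANTTCC (NF-kB). The first was found for Zbtb46 and the third for Cd209a, and the windows of Dpp4, Flt3, Xcr1, Clec9a, Wdfy4 and Batf3 held none of the 4. Over 32851 promoters of the table the shares with a match were 7.81%, 3.2%, 2.35% and 1.68% in the order given. A match describes letters in the window, which may not be the promoter in use, and was not tied to any binding data.

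Dpp4 (ENSMUSG00000035000) encodes the surface peptidase CD26, which conventional dendritic cells and activated T cells carry. Its level in controls 1 to 5 was 3.77, 6.97, 5.26, 4.61 and 2.14 CPM. In knockouts 1 to 5 it was 0.2855, 1.20, 1.37, 0.611 and 1.12 CPM. Every knockout library lay below every control library, with knockout 1 the lowest and control 2 the highest. The means were 4.55 ± 1.79 and 0.918 ± 0.453 CPM (SD, n = 5 each), from 88 to 282 counts per control library and 13 to 54 per knockout library. On the log2 scale the difference was -2.31 ± 0.44 (SE, edgeR adjusted p = 0.0297). Groups without overlap in this direction were found for 2.02% of all tested genes.

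The direction for Dpp4 was the same under all 20 alternatives, and the log2 fold change stayed between -2.50 and -2.08, but the call did not always hold, with adjusted p from 9.88e-06 (DESeq2) to 0.171. The value of 0.171 came with the close control pairs summed, and the edgeR adjusted p was 0.168 without knockout libraries 4 and 5. Leaving out control 1, 2, 3 or 4, or knockout 4 or 5, moved it to between 0.0623 and 0.0838.

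Flt3 (ENSMUSG00000042817), the receptor tyrosine kinase for Flt3 ligand, had the next most negative log2 fold change of the members. Control libraries 1 to 5 held 4.09, 5.83, 1.63, 1.92 and 3.45 CPM, and knockout libraries 1 to 5 held 0.791, 0.265, 2.26, 0.342 and 1.305 CPM. Knockout 3 lay above controls 3 and 4, so the groups overlapped, and knockouts 2 and 4 were far below the rest, with 11 and 14 counts. The means were 3.38 ± 1.71 and 0.992 ± 0.820 CPM (SD, n = 5 each). On the log2 scale the difference was -1.77 ± 0.59 (SE, edgeR adjusted p = 0.174). The DESeq2 Wald test put Flt3 past the threshold (adjusted p = 0.0378), alone among the 20 alternatives, whose adjusted p ran up to 0.443.

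Zbtb46 (ENSMUSG00000027583), the transcription factor used to tell conventional dendritic cells from macrophages, had a higher mean in the knockout, short of the test. Its level was 2.87, 1.38, 0.857, 1.02 and 0.826 CPM in controls 1 to 5 and 1.43, 1.23, 1.85, 1.88 and 2.17 CPM in knockouts 1 to 5. Control 1 was the highest of all 10 libraries, and controls 3, 4 and 5 were the lowest. The means of 1.39 ± 0.854 and 1.71 ± 0.378 CPM (SD, n = 5 each) gave a log2 fold change of 0.30 ± 0.37 (SE, edgeR adjusted p = 0.734). Flt3 and Zbtb46 are both taken as marks of the whole conventional lineage, and in these libraries their fold changes had opposite signs, neither past the test.

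The 5 type 1 members split by abundance. Xcr1 and Clec9a, the surface receptors that define type 1 cells, were scarce, whereas Wdfy4 and Batf3 were far more abundant in the same libraries. None of the 5 passed by edgeR, DESeq2 or limma-voom, with 4 negative log2 fold changes, 1 positive and a median of -0.70. None had an unadjusted edgeR p under 0.05, while Itgae had an unadjusted DESeq2 p of 0.0362 (DESeq2 adjusted p = 0.252).

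Xcr1 (ENSMUSG00000060509), the receptor for the chemokine Xcl1, stood at 1.96, 1.14, 1.20, 1.69 and 0.1215 CPM in controls 1 to 5. In knockouts 1 to 5 it stood at 0.2635, 1.76, 0.3295, 0.611 and 1.41 CPM. Control 5 was the lowest of all libraries with 5 counts, and knockouts 2 and 5 reached the upper control levels, so the groups overlapped over nearly their whole range. The means were 1.22 ± 0.706 and 0.874 ± 0.672 CPM (SD, n = 5 each), and the log2 fold change -0.48 ± 0.68 (SE, edgeR adjusted p = 0.772). The 95% exact Poisson interval of the 5 counts in control 5 was 0.0394 to 0.283 CPM, below the interval of 0.832 to 1.52 CPM in control 2, the next lowest control (these intervals cover counting error only). In RefSeq's gene order Xcr1 lies on chromosome 9 with 3 protein-coding genes, Ccr1, Ccr1l1 and Ccr3, between it and Ccr2. Their log2 fold changes were -0.46, 0.68 and 0.49, with edgeR adjusted p of 0.711, 0.588 and 0.739, and none passed the test.

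Clec9a (ENSMUSG00000046080), a lectin by which type 1 cells sense dead cells, had the lowest level of the members. Controls 1 to 5 held 0.557, 0.543, 0.771, 0.742 and 0.194 CPM, and knockouts 1 to 5 held 0.220, 0.505, 0.0760, 0.196 and 0.705 CPM. Control 5 and knockouts 1, 3 and 4 were low, and knockout 5 was as high as controls 3 and 4. These levels rest on 8 to 32 counts per control library and 3 to 27 per knockout library, and the 3 counts in knockout 3 have an interval of 0.0157 to 0.222 CPM. The means were 0.562 ± 0.230 and 0.340 ± 0.258 CPM (SD, n = 5 each). On the log2 scale the difference was -0.72 ± 0.56 (SE, edgeR adjusted p = 0.56).

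Xcr1 and Clec9a were low in the same libraries. Control 5 was the lowest control for both, and knockouts 1, 3 and 4 were below knockouts 2 and 5 for both. The root mean square distance between their centred log2(CPM + 0.5) profiles over 10 libraries was 0.41, second only to Ccr7 with Itgae (0.39) among the 45 pairs of members. Clec9a with Wdfy4, the member that varied least, came next at 0.426. Clec9a stayed at 0.771 CPM or below, so the pseudocount flattens its profile, and a small distance alone does not show a shared pattern.

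Batf3 (ENSMUSG00000026630), the AP-1 family transcription factor that type 1 development requires, shared part of that pattern at a higher level. It stood at 28.7, 21.1, 27.2, 32.4 and 10.9 CPM in controls 1 to 5 and at 4.70, 20.9, 8.52, 19.7 and 20.5 CPM in knockouts 1 to 5. Control 5 was the lowest control, knockouts 1 and 3 were the lowest of all, and knockouts 2, 4 and 5 lay just under control 2. The means were 24.1 ± 8.43 and 14.9 ± 7.66 CPM (SD, n = 5 each), and the log2 fold change -0.70 ± 0.42 (SE, edgeR adjusted p = 0.446). Its distance to Xcr1 was 0.43.

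Wdfy4 (ENSMUSG00000051506), a large protein that type 1 cells need to cross-present cell-associated antigen, was the most abundant member and varied least between libraries. It stood at 154, 151, 170, 188.5 and 170 CPM in controls 1 to 5 and at 164, 166, 144, 239 and 206 CPM in knockouts 1 to 5. Knockout 4 was the highest library and knockout 3 the lowest. The means were 166.7 ± 15.0 and 183.8 ± 38.3 CPM (SD, n = 5 each), and the log2 fold change 0.14 ± 0.14 (SE, edgeR adjusted p = 0.654). Without knockouts 4 and 5 the sign turned, to -0.064 on the log2 scale (edgeR adjusted p = 0.885).

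Itgae (ENSMUSG00000005947) encodes the integrin chain CD103, found on type 1 cells of many tissues and on tissue T cells. It stood at 5.02, 9.63, 1.31, 1.92 and 2.04 CPM in controls 1 to 5 and at 1.05, 2.26, 3.37, 0.978 and 1.04 CPM in knockouts 1 to 5. Controls 1 and 2 stood apart from the other controls, which lay within the knockout range. The means were 3.99 ± 3.47 and 1.74 ± 1.06 CPM (SD, n = 5 each). On the log2 scale the difference was -1.19 ± 0.59 (SE, edgeR adjusted p = 0.363), and it was -0.56 without control 2 (edgeR adjusted p = 0.709).

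The type 2 and migratory members were lower on average, and neither passed by edgeR, DESeq2 or limma-voom. Cd209a (ENSMUSG00000031494), a DC-SIGN family lectin found on type 2 and monocyte-derived dendritic cells, stood at 2.60, 4.125, 0.486, 1.81 and 0.219 CPM in controls 1 to 5. In knockouts 1 to 5 it stood at 0.176, 0.409, 0.507, 0.367 and 1.33 CPM. Controls 1, 2 and 4 were above every knockout, whereas controls 3 and 5 lay among them. The means were 1.85 ± 1.60 and 0.558 ± 0.449 CPM (SD, n = 5 each), and the log2 fold change -1.73 ± 0.76 (SE, edgeR adjusted p = 0.312). It was -2.34 without knockout 5 and -1.20 without control 2 (edgeR adjusted p = 0.241 and 0.581), and -2.33 without knockouts 4 and 5 (0.397). Reads that map to several places were listed as 0, so reads shared with its paralogs are not in these values. Cd209d, a paralog, averaged 0.334 CPM in controls and 0.198 in knockouts.

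Ccr7 (ENSMUSG00000037944), the receptor that guides mature dendritic cells and naive T cells to lymph nodes, stood at 5.31, 8.72, 2.80, 3.71 and 4.40 CPM in controls 1 to 5. In knockouts 1 to 5 it stood at 1.32, 2.65, 4.18, 1.03 and 0.887 CPM. Knockout 3 was above controls 3 and 4, and the other 4 knockouts were below every control. The means were 4.99 ± 2.28 and 2.01 ± 1.40 CPM (SD, n = 5 each), and the log2 fold change -1.31 ± 0.47 (SE, edgeR adjusted p = 0.209).

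**Figure D2:**
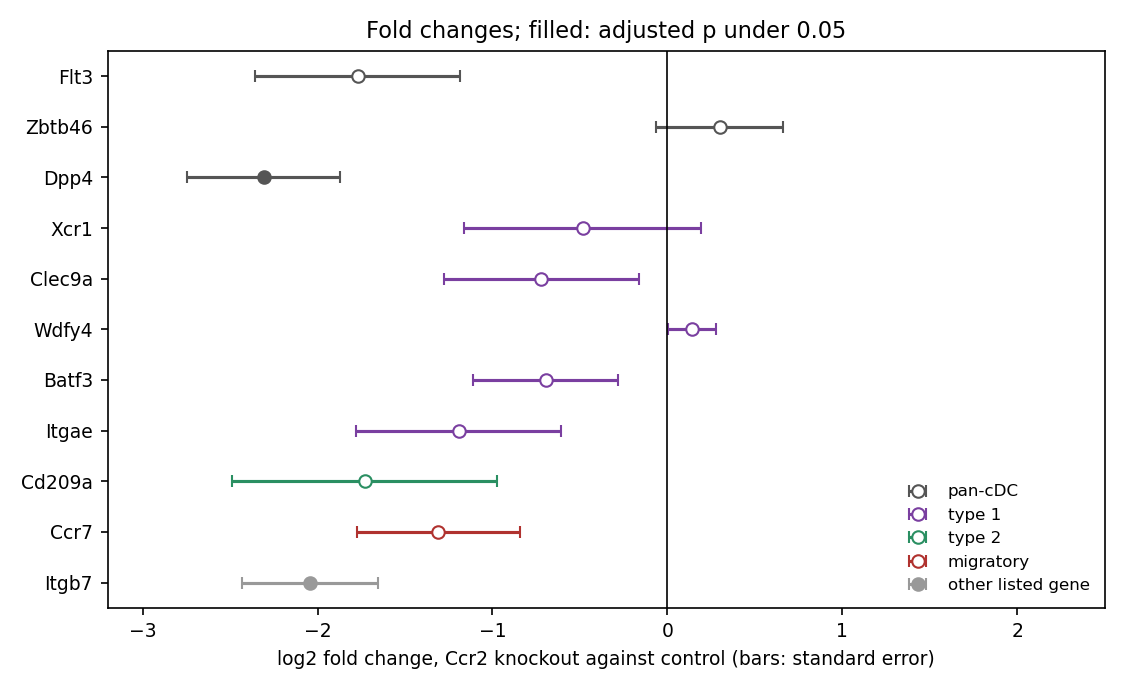
Log2 fold change of Ccr2 knockout against control for the 10 members and for Itgb7, the gene of the ligand and partner list that passed the test, with bars for the standard error and filled points for edgeR adjusted p under 0.05. Dpp4 (-2.31) is the only filled member, and Zbtb46 (0.30) and Wdfy4 (0.14) are the members to the right of 0.

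Levels of different genes were compared per kilobase of exon, on the CPM scale and averaged over the 10 libraries. Wdfy4 (16.6 ± 2.74 CPM per kb, SD, n = 10) and Batf3 (12.2 ± 5.64) led and overlapped each other. Ccr7 followed at 1.77 ± 1.20, a drop from Batf3 larger than the SDs of both together. Each later neighbour in the order, Cd209a (0.760), Itgae (0.625), Dpp4 (0.433), Flt3 (0.354), Xcr1 (0.235), Zbtb46 (0.182) and Clec9a (0.137), lay within the SD of the gene before it. The 2 abundant type 1 genes were present at levels far from those of Xcr1 and Clec9a, the defining receptors. Flt3, Zbtb46, Xcr1, Clec9a, Cd209a and Ccr7 were detected in all 10 libraries, none above 8.72 CPM, in cells where Adgre1 was at least 1562 CPM. Detection at such levels does not show which cells carried the RNA.

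Whether the classes changed by different amounts was asked within libraries, as the difference of log2(CPM + 0.5) between a pair of members. Apart from the pseudocount, such a ratio does not depend on how a library is scaled. Of 6 pairs tested by exact two-sided permutation over every arrangement of the 10 libraries (smallest possible p = 0.00794), none passed after Benjamini-Hochberg adjustment over the 6. The pairs nearest the threshold set Cd209a and Ccr7 against Zbtb46.

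Cd209a minus Zbtb46 was -0.12, 1.30, -0.46, 0.60 and -0.88 in controls 1 to 5 and -1.51, -0.93, -1.22, -1.46 and -0.54 in knockouts 1 to 5. Controls 2 and 4 were above 0, and only control 5 lay within the knockout range. The knockout mean minus the control mean was -1.22 with a standard error of 0.43 (exact permutation p = 0.0159, adjusted 0.0714). Ccr7 minus Zbtb46 was 0.79, 2.29, 1.28, 1.47 and 1.88 in controls and -0.085, 0.87, 0.99, -0.64 and -0.94 in knockouts. Control 1 was below knockouts 2 and 3, and the other 4 controls were above every knockout. The knockout mean minus the control mean was -1.50 with a standard error of 0.47 (exact permutation p = 0.0238, adjusted 0.0714).

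The genes standing for the classes were not told apart, and the type 1 class was read from Clec9a, the scarcest member. With Xcr1 in place of Clec9a, the exact permutation adjusted p was 0.305 for Cd209a and 0.298 for Ccr7. Cd209a minus Clec9a, type 2 against type 1, averaged 0.86 in controls and 0.30 in knockouts (difference -0.56, standard error 0.50, exact permutation p = 0.294, adjusted 0.352). Ccr7 minus Clec9a, migratory against type 1, averaged 2.31 and 1.47 (difference -0.84, standard error 0.56, exact permutation p = 0.175, adjusted 0.262). Ccr7 minus Cd209a, migratory against type 2, averaged 1.46 and 1.17 (difference -0.29, standard error 0.58, exact permutation p = 0.627, adjusted 0.627). That last difference changed sign without control 5 (0.043) or without knockout 5 (0.11). Clec9a minus Zbtb46 averaged -0.77 and -1.43 (difference -0.66, standard error 0.35, exact permutation p = 0.111, adjusted 0.222).

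**Figure D3:**
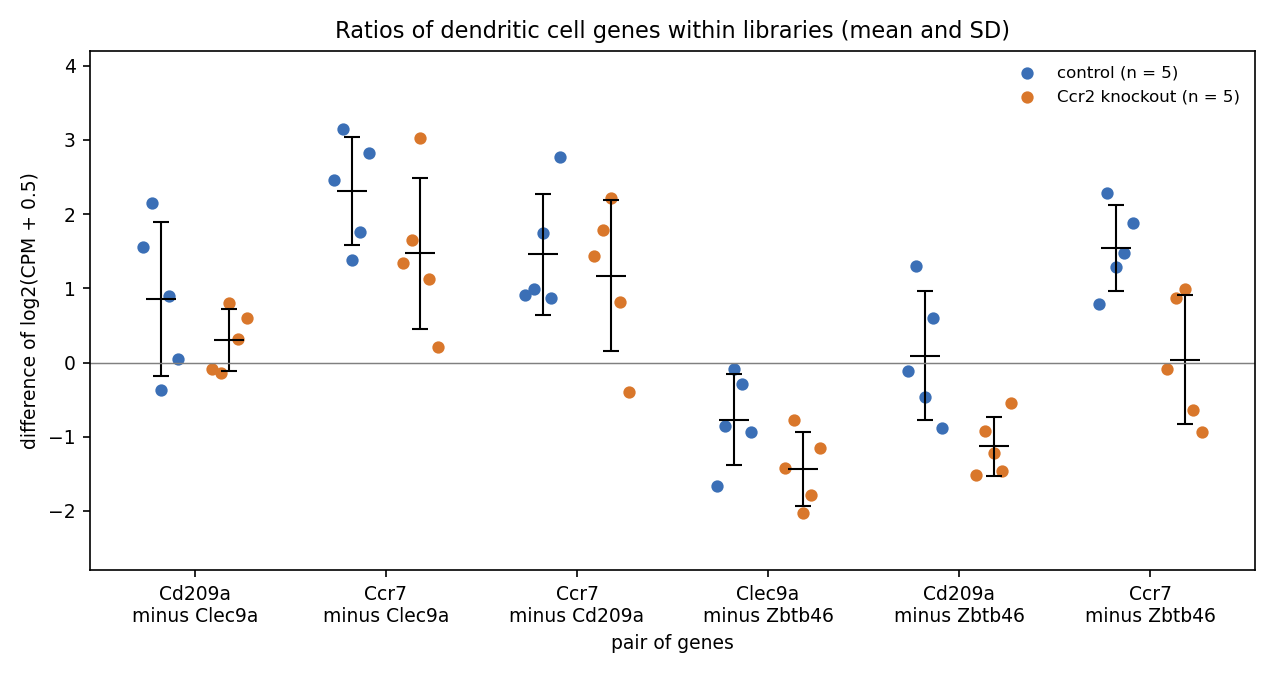
Difference of log2(CPM + 0.5) between 2 members in each library, for 6 pairs, with bars for the mean and SD of 5 controls (blue) and 5 Ccr2 knockouts (orange). The largest shifts are in Ccr7 minus Zbtb46 (mean 1.54 in controls, 0.038 in knockouts) and Cd209a minus Zbtb46 (0.087 and -1.13).

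The low and high values fell in the same libraries for many members. Control 1 was above the 10-library median for 9 members, control 4 for 8 and control 2 for 7, and control 2 held the highest value of 5 members. Controls 3 and 5 were above it for 5 members each. Knockout 1 was above it for 1 member, knockout 4 for 2 and knockout 2 for 3, whereas knockouts 3 and 5 reached 5 members each, as many as controls 3 and 5. Knockout 1 held the lowest value of 3 members, and control 5 that of 2, Xcr1 and Zbtb46.

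**Figure D4:**
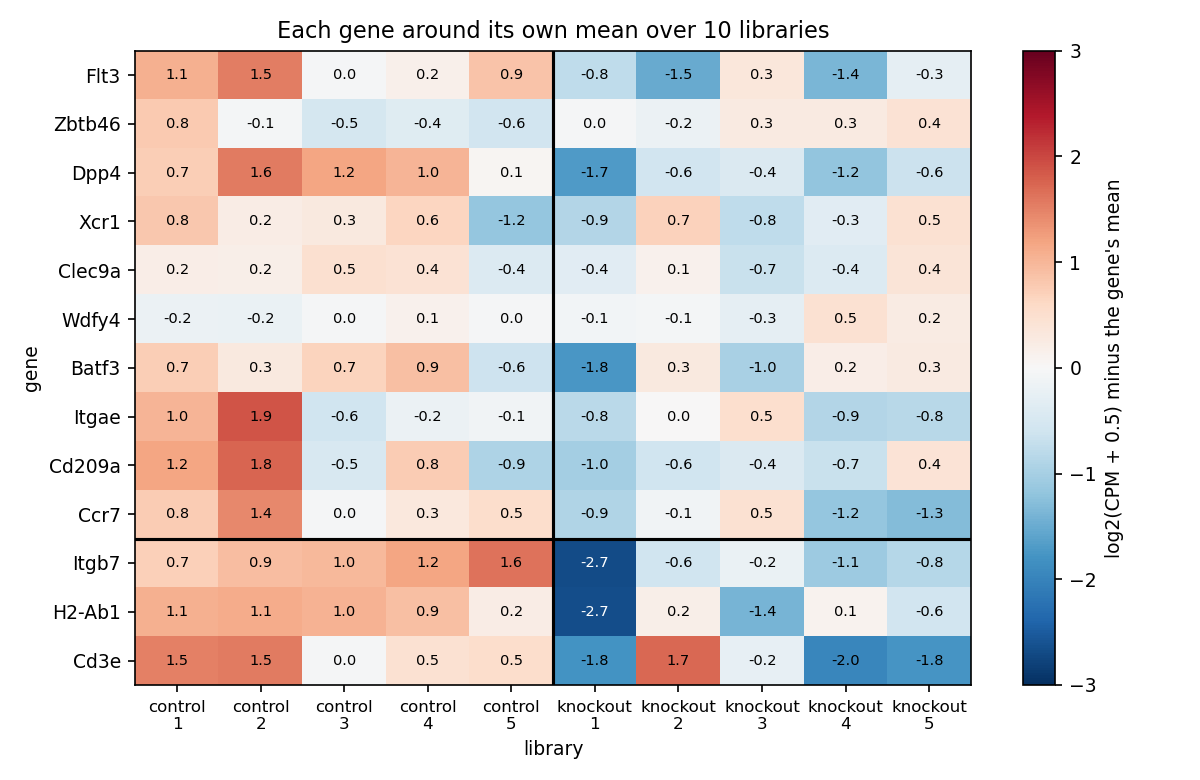
Log2(CPM + 0.5) of each member, and of Itgb7, H2-Ab1 and Cd3e for comparison, minus the gene's mean over the 10 libraries (columns), red above and blue below. Control 2 is the reddest column for the members, and Wdfy4 varies least. Knockout 2 is at 1.7 for Cd3e, -0.6 for Dpp4, 0.013 for Itgae and -0.11 for Ccr7.

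For each member with a mean of at least 1 CPM, the 3 most similar genes were found by the same distance over the 10 libraries. Clec9a was below that mean. Nearest to Dpp4 were Ifit1bl1 (0.34), Il2ra (0.38) and Tmsb10 (0.39), against a median of 1.06 over all genes compared. Nearest to Flt3 was Ogn (0.32, median 0.99), to Xcr1 Adrb1 (0.22, median 0.73), to Cd209a Heyl (0.23, median 0.95) and to Wdfy4 Nfrkb (0.0702, median 0.31). Skap1, a T cell adaptor gene, was nearest to Ccr7 (0.20, median 0.88) and second nearest to Itgae (0.355), whose nearest was S100a16 (0.35, median 0.89). Cd79b, a chain of the B cell receptor, was nearest to Batf3 (0.23, median 0.84), and Neurl1a to Zbtb46 (0.21, median 0.485).

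Ligands and partners of the members were read from a list of 9 genes, of which 7 were tested. All 7 had negative log2 fold changes, and the median was -0.88. Of the 7, 1 passed the test, beside 0.543% of all tested genes called lower. Itgb7, the integrin β7 chain that pairs with CD103, was the one that fell. It stood at 35.7, 41.7, 42.7, 49.4 and 67.9 CPM in controls 1 to 5 and at 2.94, 14.2, 18.6, 9.95 and 11.8 CPM in knockouts 1 to 5. Every control was above every knockout, and control 5, low for Xcr1 and Clec9a, was the highest. The means were 47.5 ± 12.4 and 11.5 ± 5.78 CPM (SD, n = 5 each), and the log2 fold change -2.05 ± 0.39 (SE, edgeR adjusted p = 0.0297). The adjusted p rose to 0.153 when close control pairs were summed and to 0.186 without knockouts 4 and 5, and to between 0.0523 and 0.0845 without any 1 control or without knockout 4 or 5.

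The other ligands gave no call. Flt3l, the cytokine that Flt3 binds, averaged 2.89 ± 0.812 CPM in controls and 2.55 ± 0.532 CPM in knockouts (SD, n = 5 each, log2 fold change -0.18, edgeR adjusted p = 0.77). Xcl1, which NK and T cells make, had a log2 fold change of -0.88 from 8 to 44 counts per control and 2 to 27 per knockout library (edgeR adjusted p = 0.539). The Ccr7 ligand genes Ccl19 and Ccl21a were below the filter, with 0 to 6 and 1 to 18 counts per library. Cdh1, the E-cadherin that CD103 binds, reached 57.2 and 74.1 CPM in controls 1 and 2 and stayed at 18.7 CPM or below in the other 8 libraries. Controls 1 and 2 were also the highest for Itgae.

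Other genes of conventional dendritic cells had a negative median as well. Of 22 in a core list, 21 were tested, and all 21 had negative log2 fold changes (median -0.86). Of these, 5 had groups without overlap, beside 2.02% of all tested genes in this direction. At an unadjusted edgeR p under 0.05 there were 11, beside 7.28% of all tested genes called lower that way.

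None of the genes in the type 1, type 2 and migratory lists passed the test. Of 18 tested type 1 genes, 11 had negative and 7 positive log2 fold changes, with a median of -0.16. Irf8, the factor that works with Batf3, averaged 338 ± 46.6 and 342 ± 119 CPM (SD, n = 5 each, log2 fold change 0.015, edgeR adjusted p = 0.981). Nfil3, a factor upstream of type 1 commitment, was at 162 to 418 CPM in controls and 20.3 to 152 CPM in knockouts, without overlap (log2 fold change -1.62, edgeR adjusted p = 0.168). Of 16 tested type 2 genes, 12 were negative with a median of -0.77, led by Cd1d1 (log2 fold change -1.52, edgeR adjusted p = 0.1) and Clec4a4 (-0.78, 0.144), both without overlap. Of 23 tested migratory genes, 19 were negative with a median of -0.25, led by Tnfrsf4 (-1.69, 0.175) and Birc2 (-0.40, 0.177). At an unadjusted p under 0.05 these lists held 3, 3 and 4 genes by edgeR, beside 7.28% of all tested genes lower at that p. DESeq2 called 2 (Nfil3 and Cd24a), 1 (Cd1d1) and 1 (Tnfrsf4), all lower, beside 2.51% of the genes it tested. By limma-voom 0 were called in each.

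MHC class II genes, by which dendritic cells and other presenting cells show antigen, gave no edgeR call. Of 12 tested, none passed by edgeR or limma-voom, and 8 had an unadjusted edgeR p under 0.05. DESeq2 called 5 lower, H2-Aa, H2-Ab1, H2-Eb1, H2-DMb1 and Cd74. Of all tested genes 7.28% were lower at that edgeR p, and DESeq2 called 2.51% of its genes lower. Over the 12, 11 had negative log2 fold changes and the median was -0.99. H2-Ab1 stood at 2178, 2267, 2136, 1955 and 1216 CPM in controls 1 to 5 and at 164, 1166, 393, 1122 and 696 CPM in knockouts 1 to 5. Control 5 was the lowest control and knockouts 1 and 3 the lowest libraries, as for Batf3, and the groups did not overlap. On the log2 scale the difference was -1.46 ± 0.45 (SE, edgeR adjusted p = 0.146). Of 10 plasmacytoid dendritic cell genes 7 were tested, none passed by edgeR (2 at an unadjusted p under 0.05), DESeq2 called Klra17 lower, and all 7 were negative with a median of -0.33. Siglech, their defining marker, averaged 0.548 CPM in controls and 0.529 CPM in knockouts.

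Other cells of the tumour express some members, and their markers were measured beside them. Of 19 tested T and NK cell genes 18 had negative log2 fold changes (median -1.24), and 1, Cd4, which macrophages and dendritic cells can also express, rose from 61.6 ± 12.3 to 135 ± 35.1 CPM (SD, n = 5 each, log2 fold change 1.13, standard error 0.20, edgeR adjusted p = 0.0223). By edgeR 0 were called lower, and 5 of the list, Cd4 among them, had an unadjusted p under 0.05. DESeq2 called Foxp3, Gzma and Il7r lower, and limma-voom Il7r. Of all tested genes edgeR called 0.87% higher, and 7.28% were lower at that unadjusted p. DESeq2 called 2.51% of its genes lower. The Cd4 call was lost without control 3, control 4 or knockout 4 (0.0557 to 0.0599) and when close control pairs were summed (0.151). No listed gene was at 0 in all libraries, though the NK cell marker Ncr1 had 1 to 25 counts per control and 0 to 3 per knockout library. The summed level of all 21 listed genes ran from 140 to 338 CPM in controls and from 113 to 313 CPM in knockouts. That sum includes Cd4, with its mean of 61.6 CPM in controls and 135 CPM in knockouts, so it does not follow the other genes alone. Cd3d, Cd3e and Cd3g together stood at 32.4, 35.4, 8.66, 10.3 and 13.1 CPM in controls 1 to 5 and at 1.08, 30.0, 8.39, 0.807 and 0.600 CPM in knockouts 1 to 5. Controls 1 and 2, highest for Itgae, Cd209a and Ccr7, were also highest for Cd3. Knockout 2, nearly as high for Cd3, held 1.20 CPM of Dpp4, 2.26 CPM of Itgae and 2.65 CPM of Ccr7. For each of these genes it lay below knockout 3 and above the other knockouts. The part of T cell RNA in Dpp4, Itgae and Ccr7 was not tested.

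Neutrophil genes had 9 negative log2 fold changes among 9 tested and no edgeR call (5 at an unadjusted p under 0.05, and 3 by DESeq2), with summed levels of 164 to 648 CPM in controls and 116 to 223 CPM in knockouts. The 9 listed B cell genes summed to 41.7 to 74.8 CPM in controls and 16.7 to 61.9 CPM in knockouts. They gave no call by edgeR or DESeq2 (1 at an unadjusted edgeR p under 0.05). Of all tested genes 7.28% were lower at that p, and DESeq2 called 2.51% of its genes lower. A list of 15 monocyte genes, mostly classical but with Cx3cr1, Spn and Nr4a1 of nonclassical monocytes, had 12 negative and 3 positive log2 fold changes (median -2.55). Its summed level, which follows the most abundant genes of the list and need not follow the called ones, was 4355 to 9175 CPM in controls. In knockouts it was 3709 to 6392 CPM. By edgeR 7 of the 15 fell, Ccr2 among the 7, beside 0.543% of all tested genes called lower. The log2 fold change was -3.97 for Ly6c2 and -3.97 for Plac8 (edgeR adjusted p = 0.00353 and 0.00226). The count of 7 was 5 when close control pairs were summed, 6 without knockouts 4 and 5, without control 1 or without control 2, 8 without knockout 2, and 9 without knockout 3 and by DESeq2. Of 16 macrophage genes 1, Cd68, rose (log2 fold change 0.49, edgeR adjusted p = 0.026), beside 0.87% of all tested genes called higher. The median of the 16 was 0.022. The Cd68 call was lost when close control pairs were summed (0.24), without knockouts 4 and 5 (0.0881), without a filter on low counts (0.0585) and without control 1, 2, 3 or 4 (0.0667 to 0.0832). The part of monocyte-derived RNA in the lower Dpp4 of knockout libraries was not tested.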

How the data were processed

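RNA from F4/80+ cells sorted into Trizol was poly(A)-enriched and made into directional libraries, per the labels' protocols. The authors deposited whole-number counts per gene for each library. Alignment with STAR to GRCm39 is named per the submitters' processing notes. The aligner's version and the annotation were not given in the sources used here. Counts on the reverse strand were used, and rows naming no gene (6.87% to 8.07% of reads unmapped, 1.83% to 2.10% ambiguous, 3.64% to 5.68% in no gene) were left out. A combined table was not used, since its 10 columns carry no names.

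Symbols were found for 52083 of 55359 identifiers. The gene test was edgeR 4.0.16 under R 4.3.3 (quasi-likelihood F-test, filterByExpr with minimum count 10, TMM, Benjamini-Hochberg over 14374 genes, threshold 0.05), which was tested on simulated data. The standard error is the log2 fold change over the square root of F. Levels are CPM with TMM-scaled totals. Exon lengths came from GENCODE on GRCm38. Alternatives used limma 3.58.1 and DESeq2 1.42.0, and figures matplotlib 3.10.9.

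The members and lists were chosen with earlier results of these data known. Named were all members, the genes of each list past the threshold or otherwise up to 4 with the smallest p, and the 3 genes of most similar pattern per member, leaving out predicted genes and pseudogenes. Flt3l, Xcl1, Ccl19, Ccl21a, Irf8, Cd209d, Ccr1, Ccr1l1, Ccr3, Cd74, Foxp3, Gzma, Il7r, Cdh1, Cx3cr1, Spn and Nr4a1 are exceptions, added once values had been seen. Some results this rule would name are not reported here.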

Additional observations from a re-analysis of the deposited data

Results flagged for a closer look

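In control 1, Zbtb46 stood at 2.87 CPM, apart from the other 4 controls, whose highest was 1.38 CPM. In knockout 5, Cd209a stood at 1.33 CPM, apart from the other 4 knockouts, whose highest was 0.507 CPM. The gaps were 0.727 and 0.713 of the group's range, above Dixon's 95% critical value of 0.71 for 5 samples. Of 20 groups examined (10 members in each genotype), chance would mark about 1 in 20.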

How the results depend on the processing

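Each member was refitted under up to 20 alternatives. Xcr1, Clec9a, Batf3, Itgae, Cd209a, Ccr7 and Zbtb46 kept their direction and stayed above the threshold in every one run. With the title number as a replicate block, Dpp4 was -2.39 (log2, edgeR adjusted p = 0.0961), and 0 members and 55 genes were called, with Itgb7 at 0.0715, Cd68 at 0.147 and the monocyte gene F10 at 0.0704. The numbers do not pair the libraries (correlations of deviations 0.344, 0.08, -0.529, 0.18 and -0.224, and 2 of 10 libraries closest to their own number), and the labels give them no meaning. With close control pairs summed Dpp4 was -2.18 (0.171), with 0 members and 29 genes called. Without knockouts 4 and 5 it was -2.25 (0.168), with 0 members and 50 genes called, Wdfy4 turned to -0.064 and Ccr7 minus Cd209a to 0.36. DESeq2 called 2 members, with Flt3 at -1.77 (0.0378), and 820 genes, against 203 in the main test. Leaving out 1 library at a time gave -2.50 to -2.08 for Dpp4, 0 to 1 members, 62 to 267 genes, -0.55 to 0.11 for Ccr7 minus Cd209a and -1.46 to -0.92 for Cd209a minus Zbtb46, past the threshold only without control 5 (exact permutation, adjusted p = 0.0476). With a pseudocount of 2 CPM both Cd209a minus Zbtb46 (-0.66) and Ccr7 minus Zbtb46 (-0.96) had exact permutation adjusted p = 0.0476. For both, that adjusted p was 0.119 with a pseudocount of 0.1 CPM and 0.107 with close control pairs summed. Without knockouts 4 and 5 it was 0.268 for both. A sign-flip test by title number, with a smallest possible p of 0.0625, gave an adjusted p of 0.375 for both. Other scalings, filters, limma-voom and unstranded counts called 175 to 207 genes and 1 member. The causes were not tested. Depth limits Clec9a, Xcr1 and Cd209a most, with as few as 3, 5 and 8 counts in a library.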
